A study of Equus caballus with 4 samples.

Results

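Chemokines are small secreted proteins that attract leukocytes and other motile cells, and their messages were compared between differentiating equine satellite cells treated with gamma-oryzanol (GO) and control cells. The 10 chemokines considered were CXCL9, CXCL10, CXCL11 and CCL8, grouped here as interferon-induced, CXCL6, CX3CL1, CCL2 and CCL5, grouped as NF-kB-driven, and CXCL12 and CXCL16, grouped as constitutive. Their probes were the noncontrol probes whose gene name in the array files equaled 1 of these symbols. That gave 38 probes on 42 spots, of 43603 probes in all. They covered 9 of the 10 genes, with 15 probes for the interferon-induced, 9 for the NF-kB-driven and 14 for the constitutive class, and no probe carried the name CX3CL1.

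Satellite cells are the stem cells of skeletal muscle, and GO is a mixture of plant sterol ferulates from rice bran oil. The cells came from the semitendinosus muscle of 6-month-old colts. They were kept 48 h in differentiation medium, and then received 0.125 μM GO in dimethyl sulfoxide (DMSO), or DMSO alone at the same 0.04 μl/ml, for 24 h, up to day 3 of differentiation. On each of 4 two-color arrays, cRNA of GO-treated cells carried Cy5 and that of control cells carried Cy3. No array had the dyes the other way round, so GO and a dye effect cannot be told apart. The labels call the 4 arrays biological replicates, and the methods describe cultures from 6 horses, of which the line with the best scores was taken on, without saying whether each array was a separate horse or culture. The p-values thus measure the spread between these arrays only. Of the noncontrol spots, 63.52% to 68.91% an array were well above background in Cy3 and 57.35% to 67.01% in Cy5, and none was saturated.

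In the background, chemokines act through receptors with 7 membrane spans. CXCL9, CXCL10 and CXCL11 are ligands of CXCR3, draw activated T cells and NK cells, and are classical products of interferon-gamma and type I interferon signaling. CCL2, CCL8 and CCL5 attract monocytes and T cells through CCR2 and related receptors, and CXCL6 attracts neutrophils through CXCR1 and CXCR2. NF-kB is a main activator of CCL2, CCL5, CXCL6 and CX3CL1, although interferon also acts on several of them. CXCL12, the ligand of CXCR4, and CXCL16, the membrane-bound ligand of CXCR6, are made in many resting tissues. In muscle, CCL2 is known for bringing in monocytes after injury, and CXCL12 with CXCR4 for the migration of muscle precursors.

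The coding-strand sequences of 5 probes are printed 5′ to 3′, because the 2 genes that fell, the dim CXCL11, and the pair CCL2 and CCL8 rest on them. Capitals mark the 19 bases of the CXCL10 probe that 3 of the 5 CXCL10 probes hold, the 40 bases that the CXCL9 probe shares with the other CXCL9 probe, the 56 bases common to all 5 CXCL11 probes, and the 21-base run that a CCL2 and a CCL8 probe have in common. Each has 60 bases.
CXCL10: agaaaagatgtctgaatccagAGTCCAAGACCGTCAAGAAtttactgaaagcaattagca
CXCL9: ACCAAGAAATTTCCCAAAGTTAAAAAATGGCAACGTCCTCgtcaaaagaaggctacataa
CXCL11: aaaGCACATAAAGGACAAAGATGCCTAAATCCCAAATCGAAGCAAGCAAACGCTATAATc
CCL2: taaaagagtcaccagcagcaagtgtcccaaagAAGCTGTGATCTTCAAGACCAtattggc
CCL8: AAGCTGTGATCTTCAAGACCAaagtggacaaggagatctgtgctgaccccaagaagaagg

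On EquCab1, the build of the array files, these probes lay on the minus strand. The CXCL10 probe was at chr3:39252082-39252141, the CXCL9 probe at chr3:39227447-39227506 and the CXCL11 probe at chr3:39282431-39282490. All 12 probes of these 3 genes fell within 55.0 kb of chromosome 3, and by the RefSeq annotation of assembly TB-T2T CXCL11, CXCL10 and CXCL9 followed each other with no other gene between them. The CCL2 probe spanned chr11:37348878-37349314 and the CCL8 probe chr11:37276112-37276598, both over more than 60 bases, as a probe across a splice junction does. Each of the 5 sequences had at least 1 reading frame without an inner stop codon. The CXCL6 probe was on chromosome 3, those of CCL5 and CXCL16 on chromosome 11 and those of CXCL12 on chromosome 1.

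Of the 38 probes, 20 were tested, those that stood well above background on all 4 arrays in at least 1 of the channels. They stood for 7 genes: 8 probes of the interferon-induced, 7 of the NF-kB-driven and 5 of the constitutive class. The values tested were log2 ratios of the GO over the control signal, and a probe was called where its adjusted p was 0.05 or less and its fold change 1.3 or more (0.38 on the log2 scale). Called lower in GO-treated cells were 6 of the 20 probes, all 5 of CXCL10 and 1 of CXCL9, beside 5.61% of all 26832 probes tested. All 6 passed the filter on dim probes through the control channel alone, where they were the brighter, so their count is a description and not support for a difference. None of the 20 was called higher, beside 3.33% of all probes (at an unadjusted p under 0.05, 12 of the 20 passed in either direction by limma, and 9579 of the 26832). Probes of 1 gene overlap or share a transcript, so the 6 probes are 2 genes. Without the filter on dim probes 2 of the 6 calls were left, the brightest probe of CXCL10 and that of CXCL9, and with a plain one-sample test none of the 20 (11 at an unadjusted p under 0.05). With the filter asking for both channels on all arrays, CXCL10, CXCL9, CXCL11 and CXCL6 were left out, and 0 of the 12 remaining probes were called by limma (5 at an unadjusted p under 0.05). The other 14 tested probes, of CXCL11, CCL8, CXCL6, CCL2 and CXCL16, were not called.

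**Figure D1:**
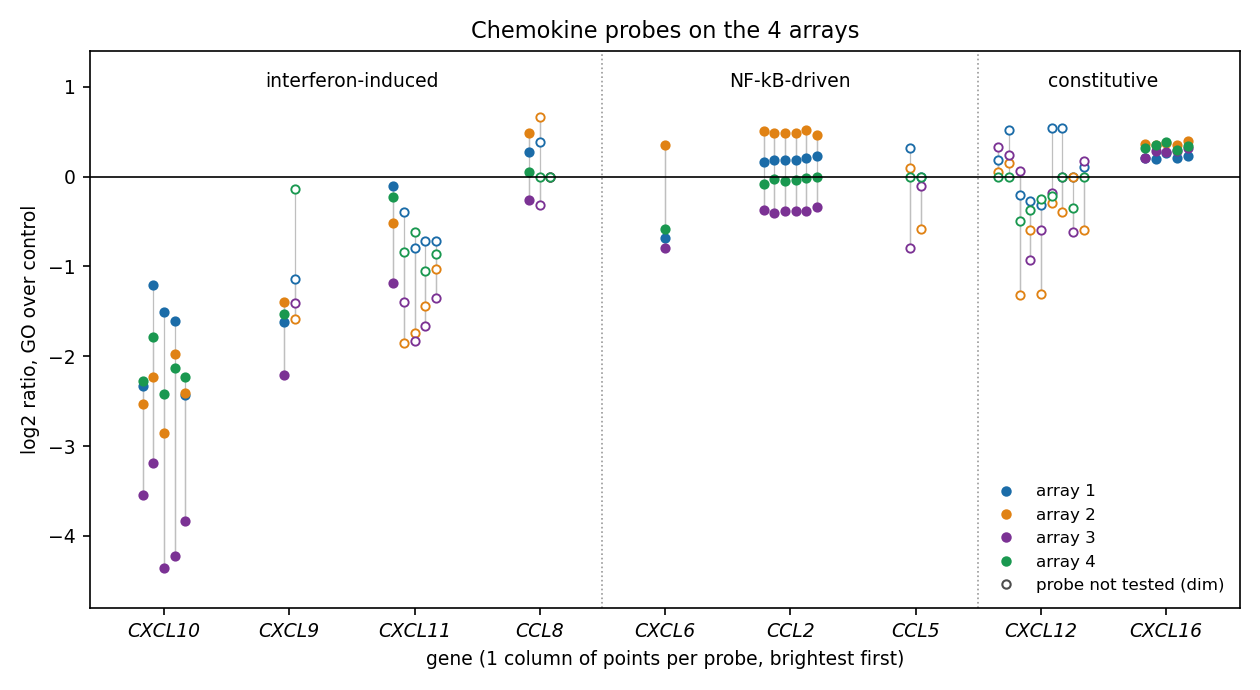
Log2 ratio of the GO over the control signal (vertical axis) for each probe of the 9 chemokine genes (horizontal axis, 1 column of points per probe), with 1 point per array, filled for the 20 tested probes and open for the 18 probes too dim to be tested. All points of CXCL10, CXCL9 and CXCL11 lie below 0, those of CCL2 lie on both sides of it, and those of CXCL16 lie between 0.20 and 0.40.

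CXCL10 had the lowest values. On its brightest probe, which is the one printed, the control signal was 130, 71.0, 161 and 65.0 on arrays 1 to 4 and the GO signal was 25.9, 12.3, 13.8 and 13.5. The channels did not overlap: the lowest control signal was above the highest GO signal. The log2 ratios were -2.33, -2.53, -3.54 and -2.27, with array 3 lowest. CXCL10 fell, with a mean log2 ratio of -2.67 (SD 0.59, n = 4, SE 0.21) and an adjusted p of 0.0019 by limma. The measured ratio is 6.35-fold, but its size is uncertain, since the GO signal was well above background on array 1 only. Normexp background correction with an offset of 50, followed by loess, gave a smaller ratio of -1.01 (adjusted p = 0.0175). In bulk RNA such as this, fewer cells of a type and less RNA per cell cannot be told apart.

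The other 4 CXCL10 probes had mean log2 ratios between -2.78 and -2.10, and adjusted p-values of 0.00288 to 0.0117. Within an array the 5 probes differed from each other by 0.63 to 1.22 in log2 ratio, and the lowest single value, -4.36, was on array 3. Array 3 gave the lowest ratio with each of the 5 probes. With normexp the 4 means lay between -0.81 and -0.62. In the GO channel these probes too were well above background on array 1 only, and the dimmest on no array.

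The dimmest CXCL10 probe was present on 5 spots of each array, and its repeat spots had an SD of 0.12 to 0.36 in log2 ratio within an array, against 0.74 between arrays. Its GO signal was not well above background on any array, so its ratio has only a bound. Set against the dimmest well-measured GO signal of each array, or its own where higher, CXCL10 was 2.77-fold lower (adjusted p = 0.00288 by limma). That signal is the lowest one flagged and not a detection limit, so the true fold may be smaller. The bound was taken from the signals of each channel after loess and Aquantile normalization, and without a dye swap it is open to dye bias. The GO signal of the second dimmest CXCL10 probe was, on 2 arrays, a floor that the software sets near background. For the dimmest probe, at least 1 of the 5 spots was at that floor on 2 arrays.

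CXCL9, whose product acts on the same receptor as that of CXCL10, fell on its brighter probe. The control signal was 101, 70.4, 82.9 and 78.6, and the GO signal was 32.8, 26.7, 17.9 and 27.2, well above background on 2 of 4 arrays. No GO value reached the lowest control value. The log2 ratios of -1.62, -1.40, -2.21 and -1.53 gave a mean of -1.69 (SD 0.36, n = 4, SE 0.13), a 3.23-fold difference with an adjusted p of 0.0019, and normexp gave -0.61 (adjusted p = 0.0129). The dimmer CXCL9 probe, which holds the 40 capital bases of the printed one, rose well above background once among the control signals and never among the GO signals. It was not tested, and its log2 ratios were -1.14, -1.58, -1.41 and -0.14.

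CXCL11, the third CXCR3 ligand, was dimmer. Its brightest probe had control signals of 46.9, 21.3, 14.9 and 30.4 and GO signals of 43.7, 14.9, 6.55 and 25.9, so that the channels overlapped. The log2 ratio was below 0 on 4 of 4 arrays, at -0.10, -0.52, -1.18 and -0.23, with a mean of -0.51 (SD 0.48, n = 4, SE 0.17, 95% confidence interval -0.92 to -0.10) and an adjusted p of 0.0856, which missed the threshold. The other 4 CXCL11 probes share runs of 57 to 59 bases with it, and their mean log2 ratios lay between -1.25 and -0.99. These 4 were not tested, because their control signal was well above background on 0 to 2 arrays and their GO signal on none, at the floor of the software on 3 arrays. The brightest probe was called with median centering in place of lowess (-0.69, adjusted p = 0.0422) and with arrays weighted by quality (-0.56, adjusted p = 0.0434), and under no other alternative run. It was nearer 0 with normexp (-0.08, adjusted p = 0.256) and without array 3 (-0.28, adjusted p = 0.146). Over CXCL9, CXCL10 and CXCL11 together, 12 of 12 probes had log2 ratios below 0 on all 4 arrays, beside 21.5% of all probes tested. But 5 of them were too dim to be tested, with the GO signal at the floor of the software on 3 arrays. The tested ones passed the filter through the control channel alone, and probes of a gene share bases.

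CCL8 is placed with the interferon-induced chemokines by textbook knowledge, and its values were unlike those of the 3 CXCR3 ligands. The only tested CCL8 probe, the printed one, had control signals of 616, 549, 1054 and 773 and GO signals of 744, 772, 879 and 801. The log2 ratios were 0.27, 0.49, -0.26 and 0.05, with a mean of 0.14 (SD 0.32, n = 4, 95% confidence interval -0.15 to 0.43) and an adjusted p of 0.452. Leaving out array 2 gave a mean of 0.02 and leaving out array 3 a mean of 0.27. The other 2 CCL8 probes were well above background in neither channel on any array. On 1 of them the ratio was listed at 0 on all 4 arrays, the value the software gave wherever both channels were at its floor.

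CCL2, the monocyte attractant, was measured by 6 tested probes. On the brightest the control signal was 5101, 3677, 8828 and 5877, and the GO signal was 5684, 5228, 6816 and 5570. The GO values lay within the range of the control values. The log2 ratios were 0.16, 0.51, -0.37 and -0.08, with a mean of 0.05 (SD 0.37, n = 4, 95% confidence interval -0.27 to 0.38) and an adjusted p of 0.813. Array 2 was high and array 3 was low.

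The arrays differed in CCL2 far more than the probes did. Within an array the 6 CCL2 probes agreed to within 0.06 to 0.08 in log2 ratio. Between arrays the means ran from -0.37 on array 3 to 0.49 on array 2. The 5 brightest probes share runs of 56 to 59 bases, so their agreement is close to that of 1 probe measured again. The dimmest shares a run of only 6 bases with each of them. The mean log2 ratios of the 6 probes were 0.05 to 0.09, and none was called. The control signal of the brightest probe varied 2.40-fold between arrays and the GO signal 1.3-fold, and after scaling the arrays to a common distribution these figures were 2.09-fold and 1.22-fold. No test was made of this difference in spread. Leaving out array 2 turned the means of all 6 probes below 0, to between -0.10 and -0.03.

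The printed CCL2 and CCL8 probes moved side by side. Their log2 ratios on arrays 1 to 4 were 0.23, 0.46, -0.34 and 0.00 for CCL2 and 0.27, 0.49, -0.26 and 0.05 for CCL8, a gap of 0.04 to 0.07 on each array. The capital run of 21 bases was the longest that any probes of different chemokines here had in common, followed by 15 bases between a CCL2 and a CCL5 probe. The part of this shared sequence in the CCL8 signal was not tested. A further pair of probes, outside the naming rule and picked after their values were seen, carry an Ensembl identifier as gene name and are described in the files as C-C motif chemokine 2. They lie at chr11:37331506-37331565 and chr11:37331507-37331566, between CCL8 and CCL2, and had mean log2 ratios of 0.18 (adjusted p = 0.308) and 0.08 (adjusted p = 0.627).

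**Figure D2:**
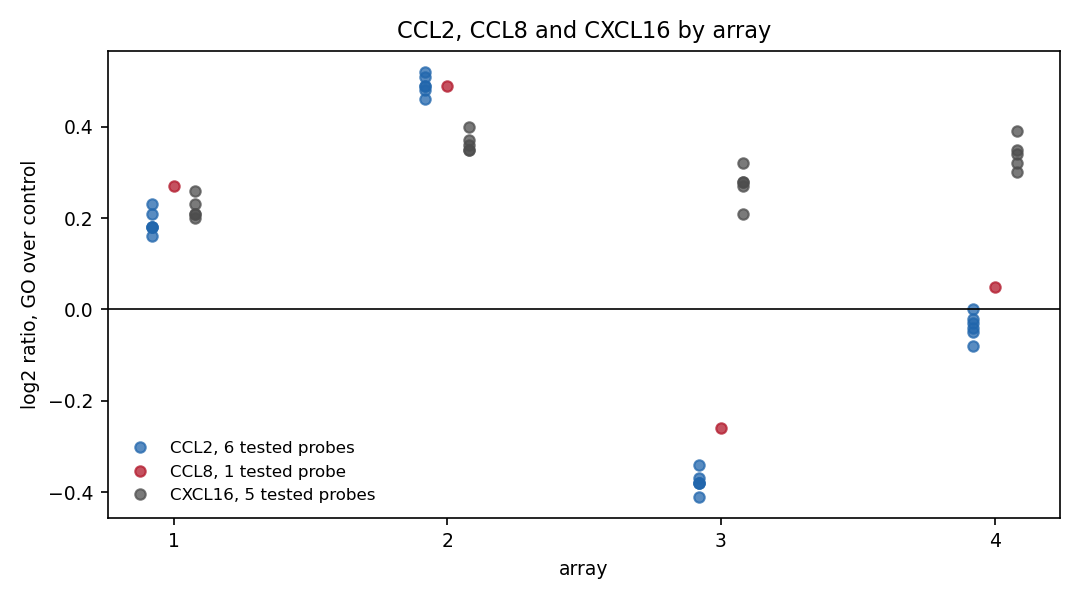
Log2 ratio of the GO over the control signal (vertical axis) on each of the 4 arrays (horizontal axis) for the tested probes of CCL2, CCL8 and CXCL16, 1 point per probe. The 6 CCL2 points of an array nearly coincide and run from about -0.37 on array 3 to 0.49 on array 2, the CCL8 point follows them, and the CXCL16 points stay between 0.20 and 0.40.

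CXCL6, a neutrophil attractant, had 1 probe. Its control signal was 28.5, 14.9, 40.7 and 35.4 and its GO signal was 17.8, 18.9, 23.6 and 23.6, well above background on 2 of 4 arrays in GO. The log2 ratios were -0.68, 0.35, -0.79 and -0.58. The mean of -0.42 (SD 0.52, n = 4, 95% confidence interval -0.86 to 0.01) had an adjusted p of 0.151. Without array 2, the only one above 0, the mean was -0.68 with an adjusted p of 0.022, past both thresholds. With normexp it was -0.06 and with arrays weighted by quality -0.25.

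CCL5, which attracts T cells, was not well above background with either of its 2 probes in either channel on any array. The mean log2 ratios were -0.10 and -0.17, and neither probe was tested. A probe described as CX3CL1 in the files, with an Ensembl identifier in place of the gene name, lies outside the naming rule. It stood well above background on 1 of 4 arrays, in the GO channel alone, with log2 ratios of 0.57, -0.91, 0.46 and 0.03.

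CXCL16 was the only one of the 7 tested chemokines with every tested probe above 0 on every array. On its brightest probe the control signal was 2178, 1766, 2366 and 1847 and the GO signal was 2515, 2260, 2737 and 2309. The channels overlapped across arrays, but within each array GO was the higher. The log2 ratios of 0.21, 0.36, 0.21 and 0.32 gave a mean of 0.27 (SD 0.08, n = 4, 95% confidence interval 0.13 to 0.42) and an adjusted p of 0.0266. The other 4 probes had means of 0.28 to 0.32 and adjusted p-values of 0.0156 to 0.0218. All 5 passed on adjusted p, as 8.29% of all tested probes did while higher in GO, and none reached the fold change of 1.3, with folds of 1.21 to 1.25. The 5 probes share runs of 55 to 59 bases, so they are close to 1 measurement repeated. Without array 2, 3 or 4 the adjusted p of each was 0.0508 to 0.118. It was 0.0676 to 0.0821 with a plain one-sample test, and 0.381 to 0.477 by limma without the pairing of channels.

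CXCL12 was near background. Its 9 probes start at 7 adjoining positions, none was tested, 4 were never well above background in either channel, and their mean log2 ratios ran from -0.61 to 0.23. Among them are 2 pairs of probes with the same 60 bases, which differed from each other by up to 1.00 in log2 ratio on an array. A change in CXCL12 was therefore not measurable on this array.

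**Figure D3:**
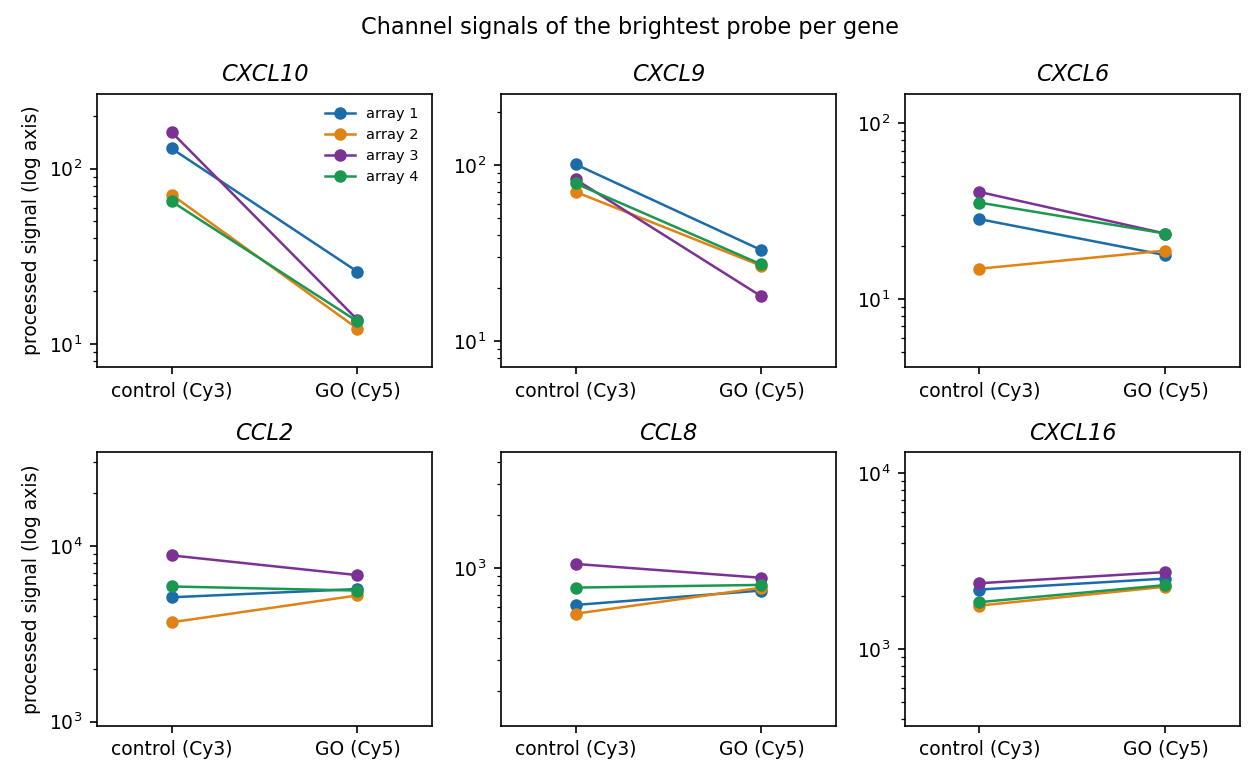
Processed signal (vertical log axis, same span in each panel) in the control and the GO channel for the brightest probe of 6 chemokines, with 1 line per array. The lines of CXCL10 and CXCL9 fall on all 4 arrays, those of CCL2 and CCL8 come together in the GO channel, and those of CXCL16 rise slightly on all 4.

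The classes were compared by the mean log2 ratio over the brightest probes of their genes on each array. The mean over the 4 interferon-induced chemokines was -0.95, -0.99, -1.80 and -0.99 on arrays 1 to 4. Over the 3 NF-kB-driven chemokines with a probe it was -0.07, 0.31, -0.65 and -0.22. Over the 2 constitutive ones it was 0.19, 0.20, 0.27 and 0.16. The interferon-induced class was the lowest on 4 of 4 arrays. The constitutive class was the highest on arrays 1, 3 and 4, and the NF-kB-driven class on array 2.

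The interferon-induced class lay below the NF-kB-driven class by 1.03 on average (difference -1.03, SD 0.24, n = 4, range -1.30 to -0.77), and below the constitutive class by more (difference -1.39, SD 0.46, range -2.07 to -1.14). Both differences were below 0 on every array. No test was made, because the genes were picked with earlier results known. With CCL8 counted as NF-kB-driven the first difference was -1.54, and with CCL5 counted as interferon-induced it was -0.78. With normexp the differences were -0.40 and -0.57. Since CCL5 and CXCL12 were near background, the class means partly average ratios of dim probes. The interferon-induced mean has this limit too. On the brightest probes of CXCL10, CXCL9 and CXCL11 the GO signal was well above background on only 1, 2 and 1 of 4 arrays. With only genes whose brightest probe was tested, an alternative chosen after seeing the data, the differences were -1.0 (SD 0.38) and -1.45 (SD 0.38). CXCL10, CXCL9 and CXCL11 met that filter through the control channel alone. This alternative thus leaves their dim GO signals in the interferon-induced mean.

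**Figure D4:**
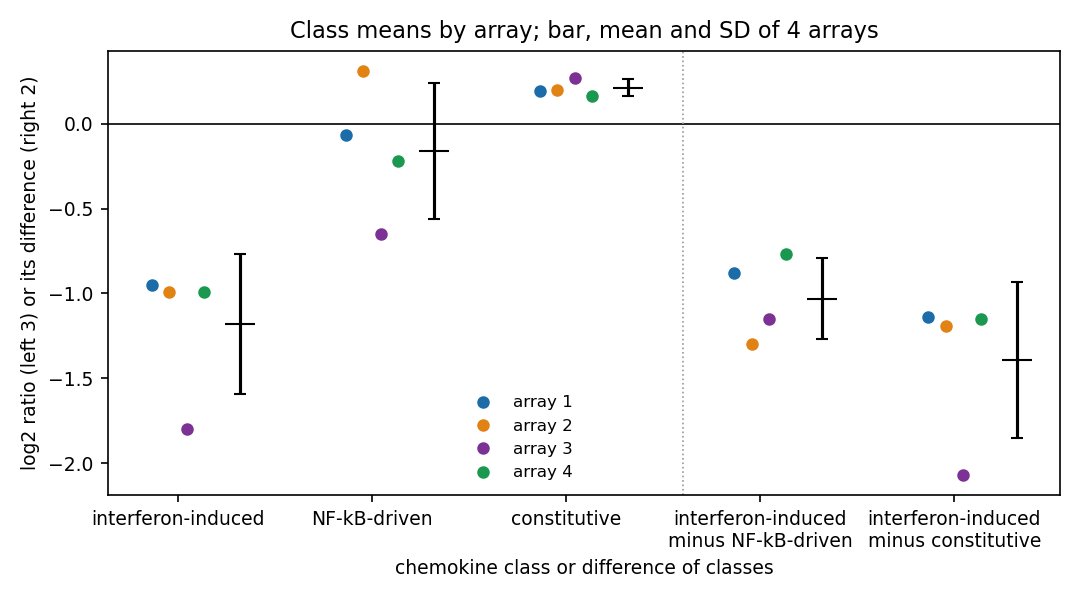
Mean log2 ratio over the brightest probes of the interferon-induced, NF-kB-driven and constitutive chemokines, and the differences between classes (vertical axis), with 1 point per array and a bar for the mean and SD of the 4 arrays. The interferon-induced points lie between -1.80 and -0.95, and both differences are below 0 on all 4 arrays.

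The receptors of these chemokines were mostly not measurable. By the brightest tested probe of a gene, 4 of the 16 receptors with a probe were tested, and 2 were called lower, CXCR4 and CXCR2, beside 5.37% of 9502 named genes. None was called higher, beside 3.3% of named genes. CXCR4 and CXCR2 passed the filter on dim probes through the control channel alone, where they were the brighter. Their count is thus a description and not support for a difference. CXCR4, the receptor of CXCL12, had log2 ratios of -1.49, -1.11, -0.68 and -1.21 (mean -1.12, adjusted p = 0.00475). Its GO signal was not well above background on any array, and against the dimmest well-measured GO signals its fall was 1.31-fold. CXCR2, a receptor of CXCL6, had -0.39, -0.16, -0.94 and -0.56 (mean -0.51, adjusted p = 0.0358), with a GO signal well above background on 1 array.

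CXCR3, the receptor of CXCL9, CXCL10 and CXCL11, had 1 probe that was well above background once, in the GO channel, with log2 ratios of 0.80, 0.59, -0.87 and -0.32. CXCR6, CX3CR1, CCR2 and CCR3 were never well above background with any probe, and CCR1 was so on 1 array a channel, so none of these was tested. CXCR1 had no probe by name. ACKR3, the scavenging receptor of CXCL12 and CXCL11, had log2 ratios of 0.46, 0.21, 0.17 and 0.26 (mean 0.28, adjusted p = 0.0374), below the fold threshold.

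Among 8 atypical receptors and chemokine-processing genes, 5 were tested and 2 were called lower, beside 5.37% of named genes. DPP4, the protease that trims CXCL10 and CXCL12, had a mean log2 ratio of -0.74 (adjusted p = 0.00615). Its GO signal was not well above background on any array, so it passed the filter on dim probes through the control channel alone. Against the dimmest well-measured GO signals its fall was 1.01-fold. ADAM17, which releases CX3CL1 from the membrane, was called with its brightest probe (mean -0.53, adjusted p = 0.031), but not with its other 2 tested probes, whose means were -0.40 and 0.06. ADAM10, the main sheddase of CXCL16, had -0.04 (adjusted p = 0.787).

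Of 26 other chemokines on the list 11 were tested, with a median log2 ratio of -0.01, beside 0.002 over all named genes, and 1 was called in each direction, beside 5.37% lower and 3.3% higher of named genes. CCL26, an eosinophil attractant, fell with log2 ratios of -1.18, -0.52, -1.04 and -0.89 (mean -0.91, adjusted p = 0.0056), and all 10 of its probes were called. CCL11, another eosinophil attractant, rose with 0.23, 0.65, 0.57 and 0.67 (mean 0.53, adjusted p = 0.0125), with 5 of 5 probes called.

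The genes around the chemokines were read from lists of the interferon and NF-kB pathways. Of 13 other interferon-induced genes tested, 12 were called lower and none higher, beside 5.37% and 3.3% of named genes, with a median log2 ratio of -1.67. Among the 12, IFIH1, IFIT3 and MX2 passed the filter on dim probes through the control channel alone. IFIH1, a sensor of double-stranded RNA, had the lowest mean (-3.25, SE 0.39, adjusted p = 0.0056), with a GO signal well above background on 1 of 4 arrays. MX1, an antiviral GTPase whose GO signal was so on 4 of 4, had a mean of -3.07 (adjusted p = 0.0019). The one not called was CIITA, the activator of MHC class II genes, at 0.14. Of 10 interferon signaling genes 4 were called lower and none higher, beside the same shares of named genes, among them USP18 (mean -2.87), IRF7 (-2.32) and IRF9 (-1.24). IFNB1 was never well above background, and the brightest IFNG probe was so on 1 array a channel.

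The NF-kB lists gave smaller values. Of 12 NF-kB pathway genes tested, none was called lower and 1 was called higher, beside 5.37% and 3.3% of named genes, NFKBIZ (mean 0.45, adjusted p = 0.00863), and the list median was -0.03. Of 9 other NF-kB-induced genes, 1 was called lower and 2 higher, beside the same shares of named genes. CFB, a complement factor that interferon also induces, was the lower one (mean -0.60, adjusted p = 0.0389). BIRC3 and PTGS2 were called higher (means 0.46 and 0.42, adjusted p = 0.0333 and 0.0211), PTGS2 with 1 of its 2 tested probes. The median of the list was 0.10. The difference between the interferon and the NF-kB lists was not tested.

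**Figure D5:**
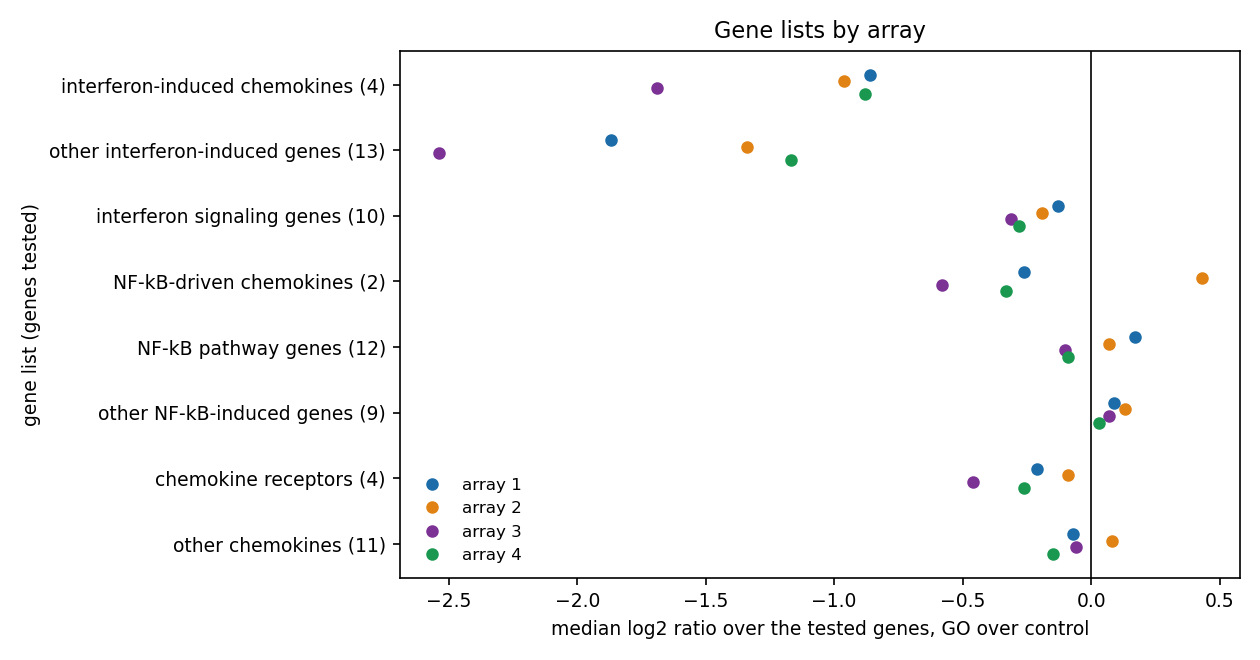
Median log2 ratio of the GO over the control signal (horizontal axis) over the tested genes of 8 lists (vertical axis, number of genes in parentheses), with 1 point per array. The list of other interferon-induced genes has its lowest median, -2.54, on array 3, which also has the lowest median of the interferon-induced chemokines, -1.69, while the NF-kB pathway and NF-kB-induced lists stay between -0.10 and 0.17.

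Array 3, lowest for CXCL10, CXCL9 and brightest-probe CXCL11, also had the lowest median over the other interferon-induced genes, at -2.54, against -1.87, -1.34 and -1.17 on arrays 1, 2 and 4. The summed signal of that list, over the brightest probe of each gene, was 89017, 30807, 172214 and 22771 in the control channel and 18294, 10835, 25806 and 10301 in the GO channel. The summed control signal of this list thus varied more between arrays than the summed GO signal, and the CXCL10 control signals had the same 2 highest arrays, 1 and 3. These sums were not scaled between arrays, and control was always Cy3 and GO always Cy5. The difference in spread was not tested. With 4 arrays no correlation was computed.

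The cells of the culture were read from markers. Of 14 leukocyte markers with a probe, 6 were tested and none was called, 5 were never well above background (CD3E, CD4, CD79A, ITGAM and LCP1), and the summed signal was 5562 to 6568 in control and 6020 to 6870 in GO cells. PTPRC had no probe by name. All 7 endothelial markers with a probe were never well above background. Of 9 satellite cell and muscle markers tested, 6 were called lower, beside 5.37% of named genes, with the largest fall in MYH8 (mean -1.08, adjusted p = 0.00824), and the summed signal was 233780 to 333269 in control and 156149 to 224413 in GO cells. Of 7 fibroblast markers 1 was called, PDGFRA, which rose (mean 0.87, adjusted p = 0.0199), beside 3.3% of named genes called higher. Whether these marker changes have a part in the chemokine values was not tested.

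The genes whose 4 log2 ratios were closest to those of a chemokine, by Euclidean distance over 4 arrays among 9494 named genes with a value on each, were listed for 3 members. Closest to CXCL10 were IRF7 (distance 0.805), CD74 (0.976) and GVINP1 (1.05). Closest to CCL2 were ERRFI1 (0.199), EPN3 (0.202) and ECATH-3 (0.238), none of which was called. Among the 3 closest to CXCL12, whose ratios came from dim signals, were FHL2 (0.077) and LSM10 (0.0772).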

How the data were processed

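RNA of GO-treated (Cy5) and control (Cy3) cells was hybridized together on 4 arrays. The authors scanned them and processed the scans with Feature Extraction (10.10.1.1 in the file headers). In the deposited files, the intensity of a channel was background-subtracted and dye-normalized (linear and lowess), and the deposited log10 ratio is processed Cy5 over processed Cy3. The authors' table of the whole series was not used here.

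Log10 ratios were multiplied by log2 of 10. Control spots (1417) and outlier spots (10 to 19 an array) were left out, and spots of a probe were averaged. Probes well above background in 1 channel on all 4 arrays were tested (26832 of 43603) against 0 with limma 3.58.1 in R 4.3.3 (lmFit, eBayes, two-sided), adjusted by Benjamini and Hochberg. The number of arrays limits the precision. The limma test was first tested on simulated data. Positions are EquCab1 as in the files, and promoter and protein sequences were not analysed here.

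All 10 members were named with every probe, further genes by list (counts called, largest rise and fall) or as receptors. The members, lists and tests were chosen with earlier results of these data known. Small counts were named after their values were seen, and a few genes under these rules are not reported here. Both channels of an array share its hybridization: their deviations from the group means correlated at 0.484 to 0.862 within an array and at -0.543 to 0.238 between arrays. The alternatives were other normalizations, filters, tests and weights, no pairing of channels, other class memberships and leaving out each array.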

Additional observations from a re-analysis of the deposited data

Results flagged for a closer look

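Of 25 results checked for an array far from the other 3, 3 were picked out, and chance alone picks about 1 in 20. All 3 concerned array 3. The 25 results are not independent, since probes of a gene share bases and the class difference below contains the class mean. The dimmest CXCL10 probe had a log2 ratio of -3.83 on array 3 against -2.43 to -2.23 on the others, a gap of 0.878 of the whole range, above the limit of Dixon's test for 4 values. The mean over the interferon-induced chemokines was -1.80 on array 3 against -0.99 to -0.95, a gap of 0.943 of the range. The difference between the interferon-induced and the constitutive chemokines was -2.07 on array 3 against -1.19 to -1.14, a gap of 0.948 of the range. Without array 3 this difference was -1.16 (SD 0.02), and the dimmest CXCL10 probe had a mean of -2.36 and an adjusted p of 0.000635 by limma.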

How the results depend on the processing

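The count of 6 chemokine probes called lower was 6 with normexp and loess, 7 with median centering in place of lowess or with array weights, 5 without the pairing of channels (no replicate block), and 6 to 7 when each array was left out. It was 2 without the filter on dim probes, 0 of 12 with the filter asking for both channels, which leaves out CXCL10, CXCL9, CXCL11 and CXCL6, and 0 of 20 with a plain one-sample test (11 at an unadjusted p under 0.05). The CXCL10 and CXCL9 ratios were below 0 under every alternative that gave them a value. Normexp, with an offset of 50, gave -1.01 for the brightest CXCL10 probe and -0.61 for CXCL9.

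Over all probes, 2399 calls became 1297 with normexp and loess, 908 without the filter, 147 with the plain test and 370 without the replicate block, and 1566 to 2430 when an array was left out (1566 without array 2). Of the 2399, 62.7% were lower (1505 lower and 894 higher), against 48.7% with median centering (1650 lower and 1740 higher). The interferon-induced minus NF-kB-driven difference was -0.40 with normexp, -0.78 with CCL5 moved, -1.54 with CCL8 moved, -1.47 without CCL8 (chosen after seeing the data) and -1.11 to -0.93 without 1 array. The interferon-induced minus constitutive difference was -0.57 with normexp and -1.47 to -1.16 without 1 array. CCL2, in order of brightness, ranged from -0.10 to 0.20, -0.09 to 0.21, -0.08 to 0.21, -0.08 to 0.20, -0.06 to 0.24 and -0.03 to 0.23 without 1 array, below 0 only without array 2. CXCL11 was called with median centering (-0.69, adjusted p = 0.0422) and with array weights (-0.56, adjusted p = 0.0434). In all, 232 of 252 single-probe values kept their direction and call. The causes were not tested.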

Other observations

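CCL20, a chemokine that draws CCR6-bearing lymphocytes and dendritic cells, had 5 tested probes that did not agree. On its brightest probe the log2 ratios were -1.19, -1.07, 3.60 and -0.41, so it was not called (adjusted p = 0.858), and this probe stood for the gene in the count of other chemokines. The other 4 probes were below 0 on all 4 arrays, including array 3, with mean log2 ratios of -0.85 to -0.68. Their adjusted p-values were 0.00442 to 0.00796 by limma, and each was called lower. All 5 probes passed the filter on dim probes through the control channel alone, with a GO signal well above background on 1 or 2 arrays. The 4 calls are thus a description and not support for a difference. CCL20 was picked after its values were seen.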
